A study of Homo sapiens with 4 samples.

Results

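The genes described here are 38 of the 32955 genes in the deposited RNA-seq table of MDA-MB-231 cells, made up of 20 targets of the hypoxia-inducible factors (HIF), 16 glycolysis enzymes and 2 HIF alpha subunits, HIF1A and EPAS1. They were taken by symbol from a list that was chosen by the measured RPKM values themselves, namely the difference between miR-217 mimic and mimic NC within each replicate number and the difference between libraries numbered 2 and 1. Values in both contrasts are therefore a description of these genes and carry no test for them. MDA-MB-231 is a human breast cancer (BC) line that lacks the estrogen receptor. The series asked which mRNAs respond to miR-217 in BC, and it holds 4 libraries. The control group, mimic NC, is 2 libraries of cells given an oligonucleotide that stands for no microRNA, and the miR-217 mimic group is 2 libraries of cells given a synthetic RNA that acts as miR-217. All 4 share the line and the serum-containing DMEM culture, and the labels name no low-oxygen step and no other agent. Each group has a library numbered 1 and a library numbered 2, and the labels state neither what the number marks nor whether the libraries came from separate cultures.

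HIF is a transcription factor made of an alpha subunit, HIF1A or EPAS1, and the partner ARNT. In oxygenated cells the EGLN enzymes hydroxylate the alpha subunit, the VHL ligase then marks it for destruction, and in low oxygen it persists and binds short hypoxia response elements with the core ACGTG or GCGTG. Its targets carry glucose into the cell, remodel collagen and chromatin, promote vessel growth and mitophagy, and include most enzymes that break glucose down to lactate, a route on which BC cells also draw when oxygen is plentiful.

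The depth on genes was 57933183 reads for mimic NC replicate 1, 47374957 for replicate 2, 53356283 for miR-217 mimic replicate 1 and, least of all, 32635814 for its replicate 2. Across the 13871 genes with a mean RPKM (reads on a gene scaled by its length and by the depth on genes) of at least 1, the first principal component held 71.3% of the variance and separated number 1 from number 2 in both groups. Of the markers of this mesenchymal line, VIM was at 27.9 to 36.9 RPKM, CD44 at 13.5 to 25.96, EGFR at 19.5 to 22.7, and AXL and CAV1 at 5.17 to 8.71. The epithelial and hormone receptor markers ESR1, GATA3, CDH1 and ESRP1 were at most 0.433 RPKM, and PGR was not among the listed genes. CDKN2A, which descriptions of MDA-MB-231 usually give as deleted, was at 10.5 to 13.2 RPKM, so this marker went against the labelled line in every library. PTPRC, a leukocyte marker, was at 0.351 and 0.414 RPKM with mimic NC and at 0.504 and 1.25 with miR-217 mimic, while PECAM1 of endothelium was at most 0.138 and COL1A1 of fibroblasts was at 0.434 to 1.10 across libraries. Whether these bear on the hypoxia genes was not tested. In RNA from whole cultures, fewer cells that express a gene and less RNA per cell cannot be told apart.

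Promoter and 3'UTR letters were read for the members because the rule did not use them. The first set shows the core of the hypoxia response element, in capitals, in promoters (RefSeq, GRCh38.p14, 250 bases before to 50 bases after the first listed start) of 6 HIF targets and 3 glycolysis enzymes. Letters are on the strand of the gene, and CACGT is the core read on the opposite strand.
BNIP3, chr10:131982042-131982066, minus strand: cacgcgccgcACGTGccacacgcac
CA9, chr9:35673900-35673924, plus strand: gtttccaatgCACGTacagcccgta
SLC2A1, chr1:42958829-42958853, minus strand: gcaacagcgaGCGTGccggtcgcta
P4HA1, chr10:73096938-73096962, minus strand: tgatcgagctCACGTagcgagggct
ANKRD37, chr4:185396688-185396712, plus strand: gtgtttgtgtACGTGcggccgtggc
BHLHE40, chr3:4979253-4979277, plus strand: cagtggccagACGTGcctggagtca
LDHA, chr11:18394467-18394491, plus strand: cccgactcacACGTGggttcccgca
PGK1, chrX:78104036-78104060, plus strand: ggcgtgccggACGTGacaaacggaa
GAPDH, chr12:6535174-6535198, plus strand: ctgcggggtcACGTGtcgcagagga
The second set shows mature miR-217 (RefSeq miR-217-5p, chr2:55983020-55983042, minus strand) with its seed, bases 2 to 8, in capitals, and the 2 HIF targets whose longest 3'UTR (GENCODE 29, GRCh38) holds the matching letters ATGCAGT, also in capitals.
hsa-miR-217-5p: uACUGCAUcaggaacugauugga
BNIP3, chr10:131970182-131970206, minus strand: aaggaaccaATGCAGTctccgactt
MXI1, chr10:110285060-110285084, plus strand: gggttcatgATGCAGTctcctcttt

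Both alternatives of the core were searched on both strands, and 34 of the 38 members matched a RefSeq promoter. The HIF targets NDRG1, BNIP3L, VEGFA and SLC2A3 were not matched, so the 16 HIF targets read here are not the 16 tested for expression. ACGTG or GCGTG stood in 12 of 16 HIF target promoters and in 11 of 16 glycolysis promoters, compared with 64.4% of the 8350 promoters of genes tested and 48.4% of all 27305 promoters. The core letters were therefore common in promoters of expressed genes at large. ACGTG alone stood in 7 of 16 HIF target promoters, in 8 of 16 glycolysis promoters and in 27.7% of promoters of genes tested. The palindrome CACGTG, which contains ACGTG, stood in 3 and 3 promoters of these lists and in 10.6% of promoters of genes tested. LDHA and BNIP3 held most cores, 6 each, where the palindrome CACGTG, which both hold, counts once on each strand. EGLN3, P4HA2, PDK1, MXI1, HK1, PFKM, PFKP, TPI1 and PGAM1 had none in this window. When every listed start of a gene was read, a choice made after seeing the data, 14 of 16 HIF targets and 15 of 16 glycolysis enzymes had a core, compared with 70.7% of genes tested, and EGLN3, P4HA2 and PGAM1 had none. More bases are read where a gene has several starts, as 4 of 16 HIF targets, 7 of 16 glycolysis enzymes and 28.3% of genes tested do. The median GC content was 67.2% for HIF target promoters, 69.8% for glycolysis promoters and 65.3% for promoters of genes tested.

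The letters ATGCAGT, which pair with the miR-217 seed, were held by 2 of 20 HIF targets, BNIP3 and MXI1, and by 1 of 16 glycolysis enzymes, PGK1. Of the 9913 genes tested with an annotated 3'UTR, 14.5% held them. When TGCAGTA, the match to bases 2 to 7 followed by an A, was counted as well, 5 of 20 HIF targets and 2 of 16 glycolysis enzymes had a match, compared with 21.7% of genes. The further matches were in EGLN1, PDK1, BNIP3L and GPI, and HIF1A also held TGCAGTA. The 8-base form ATGCAGTA was found in 0 members, compared with 3.67% of genes. Of the 6 HIF targets that were lowest with the mimic, BNIP3 and BNIP3L had a match, and NDRG1, CA9, SLC2A1 and BHLHE40 had neither in the 3'UTR read. In this annotation the median 3'UTR length was 1816 bases for HIF targets, 658.5 for glycolysis enzymes and 1326 for genes tested.

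With miR-217 mimic, NDRG1, BNIP3L, SLC2A1, BNIP3 and CA9 had the largest differences from mimic NC among the HIF targets, all of them lower. A mean below that of mimic NC was found for 15 of the 16 HIF targets tested, as it was for 15 of 16 glycolysis enzymes and 7714 of all 13871 genes tested. All differences are on the log2(RPKM + 1) scale, where the added 1 shrinks the differences of low genes, and a standard error (SE) from limma over 4 libraries accompanies the difference between groups. Of the 38 members, 34 passed the filter of a mean RPKM of at least 1. Those under it were CA9, EGLN3, PDK1 and ANGPTL4, and so 16 of 20 HIF targets entered the counts, together with 16 of 16 glycolysis enzymes. Lower values in both replicate numbers were seen for 13 of 16 HIF targets, beside 34.1% of all genes tested. For 9 of 16 both miR-217 mimic libraries lay below both mimic NC libraries, beside 13.5% of genes tested. Treatment groups must overlap where both number 2 libraries lie on 1 side of both number 1 libraries. This was so for 5 HIF targets lower and 2 higher in number 2, whatever the mimic did. The rule used this contrast, and nothing is read from these shares.

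**Figure D1:**
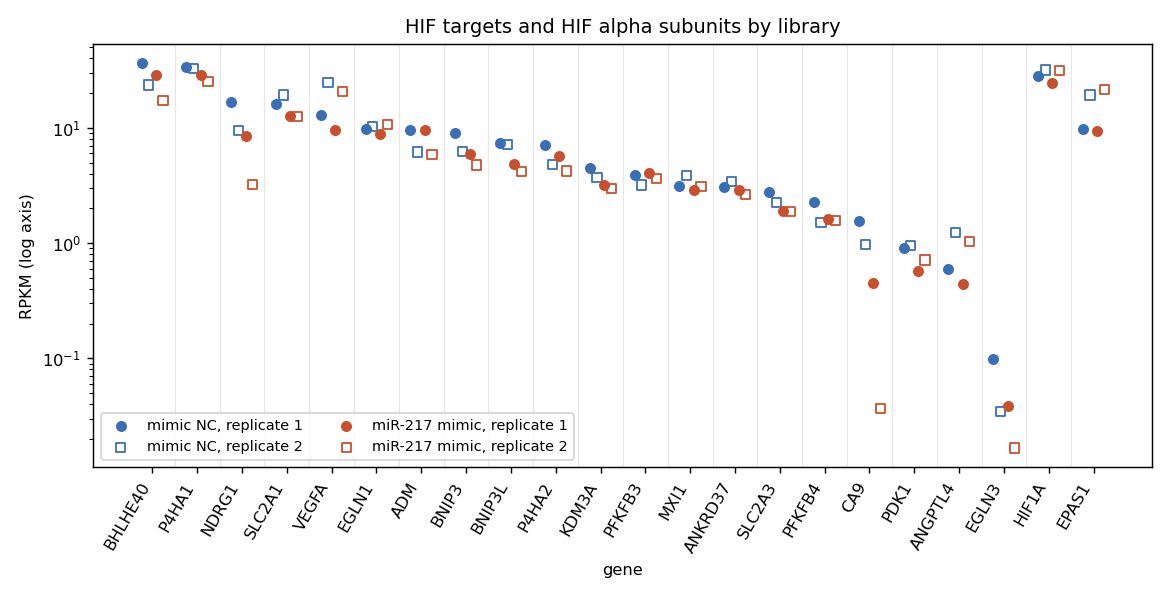
RPKM (log axis) of the 20 HIF targets and of HIF1A and EPAS1 in each of the 4 libraries, with circles for number 1, squares for number 2, blue for mimic NC and red for miR-217 mimic. NDRG1 went from 16.9 RPKM in mimic NC replicate 1 to 3.23 in miR-217 mimic replicate 2, and VEGFA and EPAS1 were set apart by number rather than by treatment.

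NDRG1, a cytoplasmic protein induced by hypoxia and other stress and studied as a suppressor of metastasis, was at 16.9 and 9.42 RPKM in mimic NC replicates 1 and 2. It was at 8.43 and 3.23 RPKM in miR-217 mimic replicates 1 and 2. The groups did not overlap, but miR-217 mimic replicate 1 lay close under mimic NC replicate 2. Mean RPKM of the controls was 13.1 ± 5.28 (SD, n = 2), that of the mimic libraries was 5.83 ± 3.68 (SD, n = 2), and the difference was -55.7%. The log2 difference was -0.92 within number 1 and -1.30 within number 2. Between groups it was -1.11 (SE 0.47), the third lowest of the 13871 genes tested. With the number 1 library of the mimic left out it was -1.69, and with the number 2 library of the mimic left out it was -0.53. The gene rested on 1035 to 9605 reads per library, and no other listed gene shares bases with its exons.

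CA9, a membrane carbonic anhydrase that acidifies the space around the cell and is a common marker of hypoxia, had few reads. It was at 1.55 and 0.973 RPKM with mimic NC and at 0.449 and 0.0367 with miR-217 mimic. These values stand for 150 and 77 reads in the controls and for 40 and 2 reads in the mimic libraries. Both mimic libraries were below both controls. The ratio of RPKM was 0.290 in number 1 (95% exact interval 0.199 to 0.413) and 0.0377 in number 2 (0.00449 to 0.141). These intervals cover counting error only, and PCR copies were not separated from independent molecules. Because 38.5% of the bases counted for CA9 are shared with ARHGEF39 on the opposite strand and the strand setting of the counting is not stated, its reads are uncertain.

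BNIP3 and BNIP3L are related receptors in the outer mitochondrial membrane that mark mitochondria for mitophagy. BNIP3 was at 8.94 and 6.26 RPKM with mimic NC and at 5.89 and 4.75 with miR-217 mimic, with differences of -0.53 within number 1 and -0.34 within number 2. BNIP3L was at 7.35 and 7.20 RPKM with mimic NC and at 4.81 and 4.19 with miR-217 mimic, with differences of -0.52 and -0.66. The groups of both genes did not overlap. The 2 libraries of a group lay close together for BNIP3L, and its difference between groups was -0.59 (SE 0.12), compared with -0.43 (SE 0.20) for BNIP3. With 1 control left out, the difference of BNIP3 was -0.21 (number 1 left out) or -0.66 (number 2 left out). BNIP3L made up 45.1% and 53.5% of the summed RPKM of the pair with mimic NC, compared with 45.0% and 46.9% for miR-217 mimic. Of the bases counted for BNIP3L, 8.96% are shared with PNMA2 and a further gene on the opposite strand.

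SLC2A1 and SLC2A3 are glucose transporters, the first of them the main one in most cultured cells. SLC2A1 was at 16.1 and 19.3 RPKM with mimic NC and at 12.8 and 12.6 with miR-217 mimic. SLC2A3 was at 2.78 and 2.26 RPKM with mimic NC and at 1.90 and 1.89 with miR-217 mimic. Neither gene overlapped between groups, and the 2 mimic libraries were nearly equal for both. For SLC2A1 the differences were -0.31 and -0.57 within numbers 1 and 2, and -0.44 (SE 0.14) between groups. For SLC2A3 they were -0.38, -0.17 and -0.28 (SE 0.13).

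Oxygenases that use the same cofactors as the EGLN enzymes were split. P4HA1, the catalytic subunit of collagen prolyl hydroxylase, was the most abundant of them at 34.0 and 32.6 RPKM with mimic NC, compared with 28.6 and 25.2 for miR-217 mimic. KDM3A, a histone demethylase, was at 4.45 and 3.70 RPKM with mimic NC and at 3.21 and 2.99 with miR-217 mimic. The groups did not overlap for either, and both had a difference of -0.30 between groups (SE 0.13 for each). P4HA2, the paralog of P4HA1, was at 7.07 and 4.81 RPKM with mimic NC and at 5.70 and 4.23 with miR-217 mimic, and its groups overlapped. EGLN1, the main HIF prolyl hydroxylase, was at 9.84 and 10.3 RPKM with mimic NC and at 8.76 and 10.7 with miR-217 mimic, lower in number 1 and slightly higher in number 2. Of EGLN3, an isoform known for strong induction by hypoxia, only 42 and 12 reads were counted with mimic NC, compared with 15 and 4 for miR-217 mimic, or at most 0.0985 RPKM.

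Secreted products of the pathway were set apart by number, so that their treatment groups had to overlap. VEGFA, the main growth factor of blood vessels, was at 12.9 and 24.7 RPKM with mimic NC and at 9.57 and 20.7 with miR-217 mimic. It was thus lower with the mimic in each number, by differences of -0.39 and -0.24, while the groups overlapped widely. ADM, a vasodilator peptide, was at 9.60 and 6.17 RPKM with mimic NC and at 9.50 and 5.91 with miR-217 mimic, nearly the same within a number. ANGPTL4, an inhibitor of lipoprotein lipase, was at 0.598 and 1.23 RPKM with mimic NC and at 0.446 and 1.02 with miR-217 mimic, on 59 to 145 reads.

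BHLHE40 and MXI1 are transcriptional repressors, of clock and differentiation genes and of MYC function respectively. BHLHE40 was the most abundant HIF target in mimic NC replicate 1 and stood at 36.4 and 23.6 RPKM with mimic NC and at 28.5 and 17.3 with miR-217 mimic. It was lower with the mimic in each number, by -0.34 and -0.42, but its groups overlapped, and the difference of -0.38 had an SE of 0.32. It was -0.04 with the number 2 library of the mimic left out and -0.73 with its number 1 library left out. MXI1 was at 3.10 and 3.86 RPKM with mimic NC and at 2.89 and 3.10 with miR-217 mimic, and its highest mimic library lay just below its lowest control. A miR-217 site letter match was present in MXI1 and BNIP3, shown above, and absent from BHLHE40.

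The remaining targets steer glucose carbon or are of less clear function. PDK1, the kinase that keeps pyruvate out of the mitochondrial acetyl-CoA route, was at 0.901 and 0.949 RPKM with mimic NC and at 0.568 and 0.714 with miR-217 mimic, without overlap. PFKFB3 and PFKFB4 make and degrade fructose 2,6-bisphosphate, the activator of phosphofructokinase. PFKFB3 was at 3.92 and 3.19 RPKM with mimic NC and at 4.09 and 3.64 with miR-217 mimic, the only HIF target tested that was higher with the mimic in both numbers. PFKFB4 was at 2.264 and 1.5001 RPKM with mimic NC and at 1.61 and 1.58 with miR-217 mimic, lower in number 1 and higher in number 2. ANKRD37, a small ankyrin repeat protein, was at 3.06 and 3.43 RPKM with mimic NC and at 2.88 and 2.64 with miR-217 mimic, and 35.2% of its bases are shared with UFSP2 on the opposite strand.

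A member was counted as past the fold when it differed by at least 0.32 in the same direction in both numbers. By this measure 4 of 16 HIF targets tested (NDRG1, BNIP3, BNIP3L and BHLHE40) were lower, beside 0.894% of all genes tested, and 0 were higher, beside 0.62% of genes tested. CA9 also passed the fold but not the filter on low values. Just inside the fold lay BNIP3 with -0.34 in number 2 and BHLHE40 with -0.34 in number 1, and just outside it lay SLC2A1 with -0.31 in number 1. After each library was centred on its median, BNIP3L and NDRG1 alone of the members were past the fold, beside 0.678% of genes tested. In limma without a replicate term, 0 members and 0 of all 13871 genes, or 0%, had a Benjamini-Hochberg adjusted p under 0.05, and 165 genes had an unadjusted p under 0.05. An unadjusted p under 0.05 with lower values was found for 2 of 16 HIF targets and for 0.707% of genes. With limma voom on recovered reads 0 genes had an adjusted p under 0.05, and 1 gene, NDRG1, had one when a replicate term was added, a setting chosen after seeing the data. NDRG1 was itself chosen on this contrast, so that nothing is read from that call. With 2 libraries in each group, 0.333 is the smallest two-sided p that exact permutation allows, and the p-values of limma measure only the spread between these libraries, which may be technical.

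**Figure D2:**
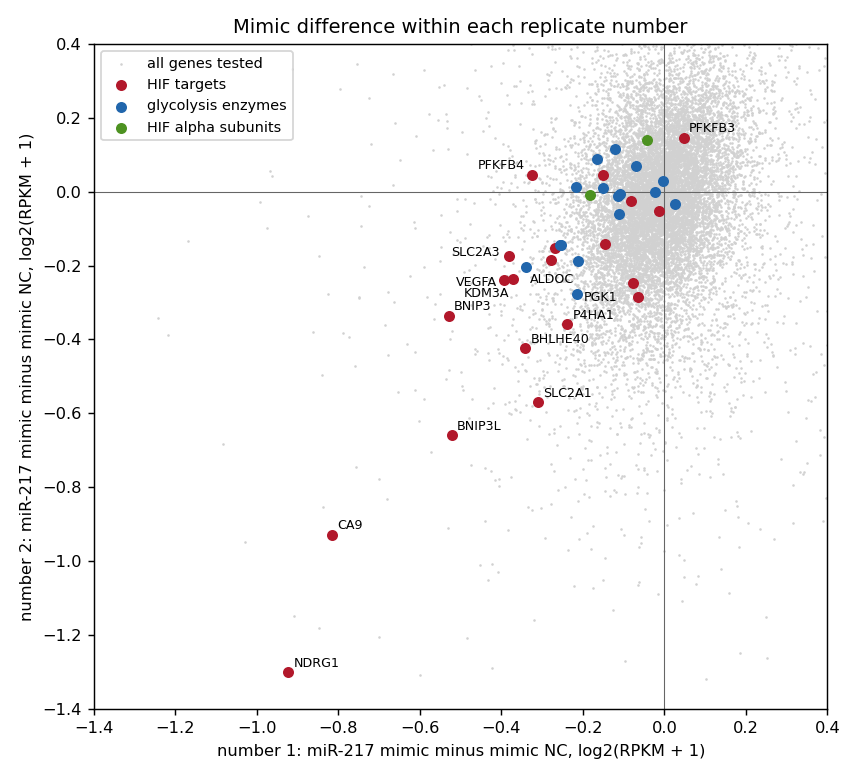
Difference between miR-217 mimic and mimic NC on the log2(RPKM + 1) scale within number 1 (horizontal) and within number 2 (vertical) for the 38 members, with all genes tested in grey and genes beyond the axes not drawn. NDRG1 lies at -0.92 and -1.30, most HIF targets lie below 0 on both axes, and glycolysis enzymes lie closer to 0 and on both sides of it in number 2.

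mRNA of both HIF alpha subunits was set apart by number, so that the treatment groups had to overlap. HIF1A was at 28.0 and 31.8 RPKM with mimic NC and at 24.6 and 31.5 with miR-217 mimic. EPAS1, which encodes HIF-2 alpha, was at 9.70 and 19.3 RPKM with mimic NC and at 9.39 and 21.4 with miR-217 mimic. The differences between groups were -0.10 (SE 0.17) for HIF1A and 0.05 (SE 0.48) for EPAS1. HIF1A was lower in both numbers, by -0.18 and -0.01, and EPAS1 was at -0.04 in number 1 and 0.14 in number 2. Both were higher in number 2 than in number 1 in each group. EPAS1 made up 25.7% and 37.8% of the summed RPKM of both subunits in the controls, and 27.7% and 40.4% in the mimic libraries. HIF alpha is regulated mainly as a protein, which RNA-seq does not measure. A list of 13 HIF regulators, 11 of them tested, had a median difference of -0.02 with the mimic, and 2 of 11 were lower in both numbers, beside 34.1% of all genes tested. The lowest were TCEB1, which encodes elongin C of the VHL ligase, at -0.25, ARNT at -0.14 and the asparaginyl hydroxylase HIF1AN at -0.08. The highest was the coactivator CREBBP at 0.05, with RBX1 at 0.03 and EP300 at 0.0038 next. TCEB1 was at 0.11 within number 1 and at -0.61 within number 2, and RBX1 and EP300 also differed in direction between the numbers.

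Glycolysis enzymes differed less between treatments. The summed RPKM of the 16 enzymes was 1565 and 1282 with mimic NC, compared with 1441 and 1289 for miR-217 mimic. It was lower in number 1 and slightly higher in number 2, and abundant enzymes weigh most in it. In number 2, ENO1 was at 431 RPKM with mimic NC and 453 with miR-217 mimic. GAPDH went likewise from 219 to 237, and LDHA from 172 to 151. The summed RPKM of the 20 HIF targets was 182 and 165 with mimic NC, compared with 141 and 126 for miR-217 mimic. Both mimic libraries were below both controls in this sum. Of the glycolysis enzymes, 9 of 16 were lower with the mimic in both numbers, beside 34.1% of all genes tested. Past the fold, 0 of 16 were lower, beside 0.894% of genes. Lower values without overlap of the groups were seen for 0 of 16, beside 13.5% of genes. Treatment groups must overlap where both number 2 libraries lie on 1 side of both number 1 libraries. This held for 13 enzymes lower and 1 higher in number 2, so nothing about the mimic is read from the count without overlap. The differences between groups went from -0.27 for ALDOC to 0.01 for PFKL.

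**Figure D3:**
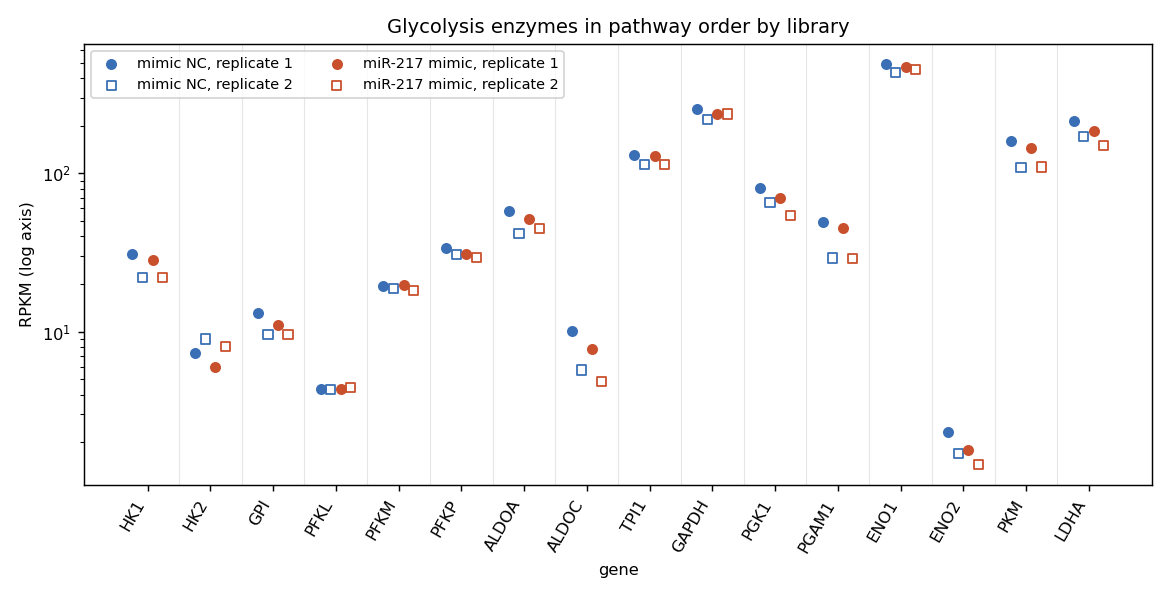
RPKM (log axis) of the 16 glycolysis enzymes in pathway order in each library, with circles for number 1, squares for number 2, blue for mimic NC and red for miR-217 mimic. Squares lie below circles for most enzymes, as for PGAM1 at 29.02 to 29.15 RPKM in number 2 and 45.3 to 49.0 in number 1, while HK2 shows the opposite order.

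Hexokinases, which trap glucose in the cell as its phosphate, were represented by HK1 at 30.9 and 22.0 RPKM with mimic NC, compared with 28.5 and 21.9 for miR-217 mimic. HK2, the inducible form in tumors, was at 7.30 and 8.98 RPKM with mimic NC and at 5.95 and 8.02 with miR-217 mimic. HK2 made up 19.1% and 28.96% of the pair with mimic NC, compared with 17.3% and 26.9% for miR-217 mimic, so its share went with the number. HKDC1, a further hexokinase outside the list, was more abundant than either at 45.4 to 64.8 RPKM and made up 54.5% to 68.4% of the 3. GPI, the isomerase of the next step, was at 9.53 to 13.1 RPKM, with differences of -0.22 in number 1 and 0.01 in number 2.

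Phosphofructokinase, the committed step, was held by PFKP at 33.7 and 30.9 RPKM with mimic NC, compared with 31.1 and 29.5 for miR-217 mimic. PFKM was at 19.4 and 18.6 RPKM with mimic NC and at 19.7 and 18.2 with miR-217 mimic, and PFKL at 4.31 to 4.42 across the 4 libraries. The groups overlapped for all 3, and PFKP made up 56.3% to 58.7% of the 3 in every library. Aldolase splits the sugar, and ALDOA was at 58.2 and 41.9 RPKM with mimic NC and at 51.8 and 44.6 with miR-217 mimic. ALDOC was at 10.1 and 5.71 RPKM with mimic NC and at 7.80 and 4.82 with miR-217 mimic. ALDOC was lower in both numbers, by -0.34 and -0.20, and ALDOA was lower in number 1 and higher in number 2.

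In the later steps of the pathway, the group means of TPI1, GAPDH and ENO1 were close to level, while PGK1, LDHA and ENO2 were lower in both numbers. Within numbers 1 and 2, GAPDH was at -0.12 and 0.12, and ENO1 was at -0.07 and 0.07. TPI1 was at 113 to 131 RPKM in mimic NC and 113 to 129 in miR-217 mimic. PGK1, the first step that makes ATP, was at 81.2 and 65.5 RPKM with mimic NC and at 69.8 and 53.9 with miR-217 mimic, with differences of -0.22 and -0.28. LDHA, which turns pyruvate into lactate, was at 216 and 172 RPKM with mimic NC and at 186 and 151 with miR-217 mimic. In these cases each mimic library was below the control of its own number, while the groups overlapped. ENO1 was the most abundant member of all at 431 to 491 RPKM, and ENO2 at 2.31 and 1.70 in the controls and 1.78 and 1.44 in the mimic libraries made up at most 0.469% of the pair. PGAM1 was at 49.0 and 29.15 RPKM with mimic NC and at 45.3 and 29.02 with miR-217 mimic, and PKM, pyruvate kinase, at 161 and 109 in the controls and 145 and 110 in the mimic libraries. Both differed more between numbers than between treatments, with -0.11 and -0.0062 for PGAM1 and -0.15 and 0.01 for PKM between treatments within numbers 1 and 2. Of the enzymes, 9 of 16 have listed pseudogene copies named after them, 38 in all, which together held at most 0.676% of the reads of the parent gene, the highest being TPI1. Bases shared with genes on the opposite strand made up 14.2% of GAPDH, 10.1% of ALDOC, 8.62% of PFKM and 8.45% of ALDOA. Genes on the same strand shared 5.95% of the bases of GPI and 2.48% of those of PFKP. Among the other members they shared 4.73% of PFKFB4 and 2.87% of HIF1A.

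Set beside each other, HIF targets had a median difference of -0.29 with the mimic and glycolysis enzymes one of -0.07, compared with -0.02 for all genes tested. The medians were -0.32 and -0.14 within number 1, and -0.24 and -0.0086 within number 2, in the same order. Glycolysis enzymes thus lay 0.22 above the HIF targets in the median. This distance went from 0.0446 without mimic NC replicate 2 to 0.295 without mimic NC replicate 1, and the glycolysis median itself from -0.285 to 0.0928 with the same libraries left out. It was -0.17 without miR-217 mimic replicate 1 and 0.01 without miR-217 mimic replicate 2. A comparison that lacks 1 library mixes numbers 1 and 2 between the groups. The median of HIF targets stayed between -0.34 and -0.20 whichever library was left out.

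Libraries numbered 2 and 1 differed more widely than the treatments, and there the order of the lists was the opposite. Of the glycolysis enzymes, 13 of 16 were lower in both number 2 libraries than in both number 1 libraries, beside 35.5% of all genes tested, and 1 of 16, HK2, was higher, beside 26.9% of genes. Of the HIF targets, 5 of 16 were lower and 2 of 16, VEGFA and EGLN1, were higher. At a Benjamini-Hochberg adjusted p under 0.05 in limma with a treatment term, the lower genes were 4.69% of all genes tested and the higher ones 3.69%. By that count 4 of 16 glycolysis enzymes (HK1, ALDOC, PGAM1 and PKM) and 3 of 16 HIF targets (NDRG1, ADM and BHLHE40) were lower, and VEGFA and EPAS1 were higher. The calls depend on the setting, with 1163 genes in this fit, 3 without a filter and 3280 with limma voom. The rule used this contrast too, and nothing is read from these shares. What the number stands for cannot be told apart from other differences between the libraries that carry it.

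The members highest in number 2 relative to number 1 were EPAS1, at 1.02 (SE 0.08), and VEGFA, at 0.96 (SE 0.08). In mean RPKM, EPAS1 was 113% and VEGFA 102% higher in number 2. ANGPTL4, under the filter, was also higher in number 2, at 1.23 and 1.02 RPKM compared with 0.598 and 0.446. Among the HIF targets tested, EGLN1 and MXI1 came next after VEGFA, each at 0.16. On the lower side stood NDRG1 at -0.97 (SE 0.12), BHLHE40 at -0.65 (SE 0.07) and ADM at -0.58 (SE 0.07). HIF targets were therefore found on both sides in this contrast, and VEGFA and NDRG1, lower together with the mimic, were at its opposite ends. Among the enzymes PGAM1 at -0.68 (SE 0.07), ALDOC at -0.66 (SE 0.08) and PKM at -0.48 (SE 0.08) were lowest in number 2, and HK2 at 0.32 (SE 0.08) and PFKL at 0.0069 were the 2 on the higher side.

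**Figure D4:**
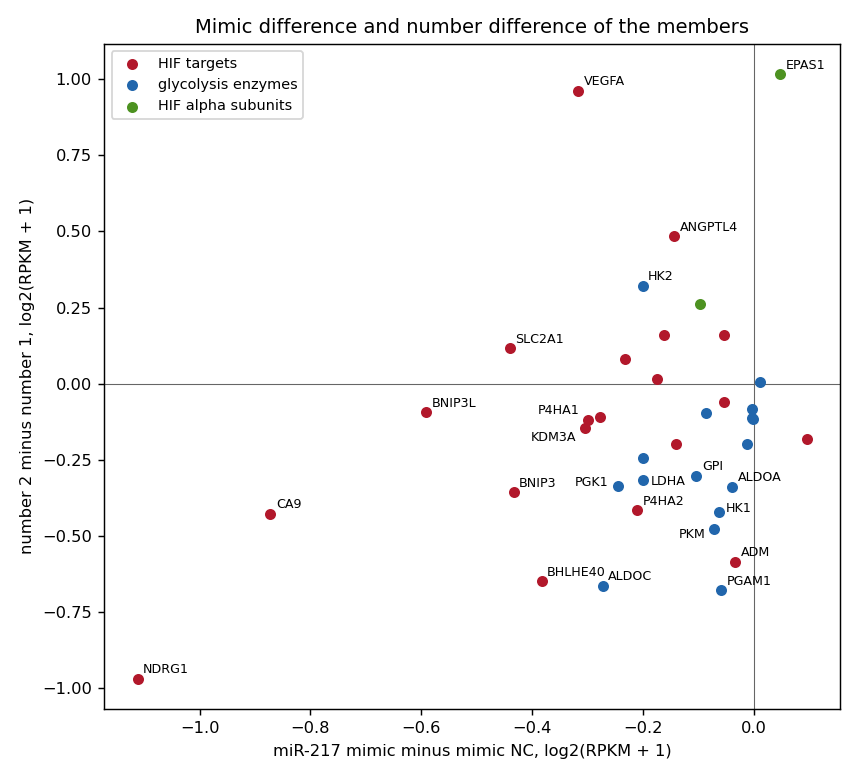
Difference between miR-217 mimic and mimic NC (horizontal) and between number 2 and number 1 (vertical), both on the log2(RPKM + 1) scale, for the 38 members. HIF targets spread along the horizontal axis down to -1.11 and to both ends of the vertical one, while glycolysis enzymes stay between -0.27 and 0.01 horizontally and lie mostly below 0 vertically.

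The median difference between numbers was -0.27 for glycolysis enzymes and -0.13 for HIF targets, compared with -0.04 for all genes tested. Within mimic NC these medians were -0.30 and -0.21, and within miR-217 mimic they were -0.19 and -0.11. The distance between the lists, -0.14 over 4 libraries, was -0.0876 within mimic NC and -0.0755 within miR-217 mimic. Both contrasts use the same 4 libraries, and each gene's values are therefore given side by side and were not correlated.

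Other genes of the pathway, from lists written with earlier results of these data known, were read in the same way. Of 30 further hypoxia targets, 24 were tested, and their median difference with the mimic was -0.18. Of these, 17 of 24 were lower in both numbers, beside 34.1% of all genes tested. Both mimic libraries were below both controls for 9 of 24, beside 13.5% of genes. The treatment groups had to overlap for 7 genes lower and 8 higher in both number 2 libraries than in both number 1 libraries. Past the fold, beside 0.894% of genes, was 1 of 24, FAM162A, a mitochondrial protein, at 15.4 and 11.1 RPKM with mimic NC, compared with 11.99 and 8.01 for miR-217 mimic. FAM162A at -0.38, the IGF carrier IGFBP3 at -0.33 and the fucosyltransferase FUT11 at -0.29 were lowest, and the receptor MET at 0.12 and the transferrin receptor TFRC at 0.08 were among the highest. Between numbers the median of this list was -0.09, from INSIG1 at -0.72, FAM162A at -0.49 and LOXL2 at -0.44 to NFIL3 at 0.36, with RIOK3 at 0.34 also among the highest. The hypoxia genes outside the members thus lay between the HIF targets and all genes tested.

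Of 26 other enzymes and carriers of glucose and pyruvate, 17 were tested, and their median was -0.06 with the mimic and -0.04 between numbers. With the mimic 10 of 17 were lower in both numbers, beside 34.1% of all genes tested. The lowest were the pyruvate carrier MPC2 at -0.14, PDK4 at -0.13 and PDHB at -0.12, and the highest were ADPGK at 0.11, LDHB at 0.09 and HKDC1 at 0.02. Within numbers 1 and 2, PDHB was at 0.01 and -0.25, and HKDC1 was at -0.01 and 0.06. LDHB, the lactate dehydrogenase subunit that favours pyruvate, was at 166 and 158 RPKM with mimic NC and at 173 and 172 with miR-217 mimic. Its share of the sum with LDHA was 43.5% and 47.9% with mimic NC, compared with 48.2% and 53.4% for miR-217 mimic, higher with the mimic in each number. Between numbers ENO3 and PDK2 at -0.50 each and BPGM at -0.38 were lowest, and HKDC1 at 0.47, PDK4 at 0.36 and PFKFB2 at 0.19 were highest. Among the HIF regulators the median between numbers was 0.03. CITED2, which competes with HIF for its coactivators, stood far below the others at -1.63, with 44.1 and 37.5 RPKM in number 1 and 11.5 and 13.4 in number 2. RBX1 and ARNT followed at -0.37 each, and VHL at 0.43, CREBBP at 0.32 and EGLN2 at 0.26 were highest.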

How the data were processed

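RNA was extracted with TRIzol and made into stranded mRNA libraries, per the labels. The authors deposited 1 table of RPKM for 32955 genes. Their processing notes name Trimmomatic 0.36, featureCounts (Subread 1.5.1) and GRCh38/hg38. The aligner and the strand setting are not given in the sources used here. RPKM times gene length gave whole reads for 100% of nonzero values (tolerance 0.05 reads), and these reads are the stated depths.

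Values were analysed as log2(RPKM + 1) in 13871 genes (mean RPKM at or above 1) with limma 3.58.1 (lmFit, eBayes with trend, two-sided, Benjamini-Hochberg over all genes tested) in R 4.3.3. The mimic contrast had no replicate term, and the number contrast had a treatment term. The fits were tested on simulated data. Count ratios carry 95% exact binomial intervals. Promoters came from RefSeq, and 3'UTRs from GENCODE 29.

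Members and lists were chosen with earlier results of these data known. Values by library are given for NDRG1, BNIP3L, SLC2A1, HIF1A, EPAS1, isoenzyme pairs, members differing by at least 0.2 the same way in both numbers, and the 3 largest number differences each way. From other lists, the 3 largest differences each way are named, except where an item is not reported here. GPI, TPI1, LDHA, ADM, PDK1 and ANKRD37 were detailed further after their values were seen. Alternatives were another pseudocount, filters, median centring, voom, a replicate block, other folds, a longer motif, a moved list border and leaving out libraries.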

Additional observations from a re-analysis of the deposited data

Results flagged for a closer look

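ALDOA, GAPDH and ENO1, all abundant glycolysis enzymes, drew attention because the mimic went with a lower level in number 1 and a higher level in number 2. The rule used these differences, and counting error alone does not measure the spread between libraries, so that nothing is read from them. Each number holds 1 library per group, and the difference between the numbers was not tested. On the log2(RPKM + 1) scale, miR-217 mimic minus mimic NC was -0.166 in number 1 and 0.0877 in number 2 for ALDOA. For GAPDH it was -0.121 and 0.116, and for ENO1 -0.0707 and 0.0695. GAPDH was at 257 and 219 RPKM with mimic NC and at 236 and 237 with miR-217 mimic, so that its mimic libraries lay between its controls.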

How the results depend on the processing

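Medians of HIF targets and glycolysis enzymes kept their direction in both contrasts under all alternatives that used 4 libraries. With a filter of at least 5 in mean RPKM, the HIF target median between numbers was -0.24 in place of -0.13. The distance between the lists in that contrast was then -0.07 in place of -0.14. With the mimic, leaving out 1 library moved the glycolysis median from -0.285 to 0.0928 and its distance from HIF targets from 0.0446 to 0.295. Genes at an adjusted p under 0.05 between numbers were 1163, but 3 without a filter and 3280 with limma voom. Members past the fold were 4, beside 0.894% of genes tested. They were 2 after median centring (0.678% of genes), 10 at a log2 difference of 0.2 (2.9%), ALDOC and PGK1 among them, and 1 at 0.58 (0.101%). Leaving out 1 library changed the sign of 30 of 136 member values with the mimic and of 8 of 136 between numbers. VEGFA, at -0.32 with the mimic, was at 0.13 without mimic NC replicate 2 and at 0.20 without miR-217 mimic replicate 1. With the longer motif ACGTGC or GCGTGC, 6 HIF target and 7 glycolysis promoters had a match in place of 12 and 11, and 28.3% of promoters of genes tested in place of 64.4%. Under median centring PFKM, TPI1, GAPDH and ENO1 differed by 0.022, 0.014, 0.024 and 0.025 with the mimic, in place of values just below 0. The causes were not tested. No value without 1 library could be had for the members past the fold, which need both numbers, or for the count between numbers in the fit with a treatment term, which then has no residual degrees of freedom.

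A replicate block cannot move a difference between groups in this balanced design, so the median of HIF targets was -0.29 by construction. With the block, 0 genes had an adjusted p under 0.05 in limma, although 1046 had an unadjusted p under 0.05 in place of 165. When voom and the replicate block were joined, a setting chosen after seeing the data, 1 gene had an adjusted p under 0.05 in limma, NDRG1, a member chosen on this contrast, so that this is no test of it. Same-numbered libraries deviated together from their group means (correlation 0.68 over genes), but the labels do not say that the number marks a shared origin. Depth limits CA9 and EGLN3 most.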
